A study of Mus musculus with 9 samples.

Results

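Immunoglobulin chains were followed together with 2 partners of their secretion and export, the joining chain gene Jchain and the polymeric immunoglobulin receptor gene Pigr, in whole oviduct of CD1 female mice. The members were every probe set of the array with at least 1 annotated symbol beginning Igh (heavy chain), Igk (kappa light chain) or Igl (lambda light chain), without Ighmbp2 and the Igll and Iglon genes, plus those of Jchain and Pigr. The rule used names only and found 33 probe sets among 28214: 10 heavy, 19 kappa, 2 lambda, 1 of Jchain and 1 of Pigr. Of these, 17 carried 1 symbol (6 heavy, 9 kappa, Jchain and Pigr) and 16 carried several (4 heavy, 10 kappa and both lambda).

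Total RNA was hybridised to 9 Affymetrix arrays, 3 per group: sexually immature females of day 21, sexually mature females in estrus and sexually mature females in diestrus. All groups shared the CD1 strain and received no hormone. Each array carried oviduct tissue pooled from 5 animals, so p-values measure the spread between pools, and the labels do not say whether the pools of a group were collected on separate days. The labels give no age in days for the mature females, so age and sexual maturity cannot be told apart. In whole tissue, fewer cells of a type and less RNA per cell cannot be told apart either.

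An immunoglobulin is built from 2 kinds of chain, heavy and light. Each has a variable segment (V) that was joined by recombination in the B cell and a constant region (C). The constant region of the heavy chain sets the class. Plasma cells beneath a mucosal epithelium secrete IgA and IgM as polymers held together by the J chain. Pigr, on the basal side of the epithelial cell, binds such polymers, carries them through the cell and releases them into the lumen, where they coat microbes. In the female tract this route is known to vary with ovarian hormones, and most of what is known comes from the uterus.

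Jchain and Pigr stand at the 2 ends of this route, and their promoters are shown because the data contrast them: one gene was called higher in both mature stages and the other in neither. The windows run from 250 bases before to 50 after the RefSeq start in GRCm38.p6, chr5:88527848-88528147 on the minus strand for Jchain and chr1:130826434-130826733 on the plus strand for Pigr, written 5′ to 3′. Capitals mark matches, on either strand, to the octamer ATGCAAAT, the E-box CACGTG, the interferon element (GAAA and GAAA with 2 bases between), the NF-kB motif (GGG and CC with 5 between), the full estrogen response element (GGTCA and TGACC with 3 between) or its half-site GGTCA.
Jchain: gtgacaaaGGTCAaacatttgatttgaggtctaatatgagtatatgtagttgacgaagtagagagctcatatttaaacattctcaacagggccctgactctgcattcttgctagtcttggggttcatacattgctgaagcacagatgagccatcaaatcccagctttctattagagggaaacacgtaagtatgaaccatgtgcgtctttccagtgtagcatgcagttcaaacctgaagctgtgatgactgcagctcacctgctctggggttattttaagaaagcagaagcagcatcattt
Pigr: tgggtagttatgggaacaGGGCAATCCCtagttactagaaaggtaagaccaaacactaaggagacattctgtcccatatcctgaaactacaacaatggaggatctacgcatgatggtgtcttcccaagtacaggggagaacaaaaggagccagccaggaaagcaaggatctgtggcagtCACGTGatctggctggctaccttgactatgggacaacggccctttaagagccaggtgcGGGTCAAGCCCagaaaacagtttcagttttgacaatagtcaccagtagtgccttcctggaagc

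The Jchain window held 1 half-site and none of the other 5 motifs. The Pigr window held the E-box, which begins 71 bases before the start and is present in 7.15% of the 32851 promoter windows of the RefSeq table. It also held the NF-kB motif at 2 places, each matched on both strands, and the matches nearer the start also cover the half-site. The Pigr window held neither the octamer nor the interferon element. The NF-kB motif is in 50.8% of all windows and the half-site in 40.5%, against 1.74% for the octamer, 3.44% for the interferon element and 0.07% for the full estrogen element. A match describes letters only.

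Values are log2 intensities, so that a difference of 1 is a doubling. Every one of the 33 probe sets had a higher mean in estrus than in immature oviduct and a higher mean in diestrus than in immature oviduct. The median difference was 0.56 in estrus and 0.57 in diestrus, against 0.01 over all probe sets in each comparison. On all 31 chain probe sets the lowest of the 9 arrays was an immature one. The highest array was an estrus array for 14 chains and a diestrus array for 17. In the limma test, adjusted by Benjamini-Hochberg across the whole array and called below 0.05, 5 members rose in estrus and 13 in diestrus, and none fell in either. Over all probe sets the share called higher was 0.0319% in estrus and 0.294% in diestrus, and the share called lower 0.0532% and 0.705%. All 3 estrus arrays lay above all 3 immature arrays for 27 of 33 members, against 3.19% of all probe sets, and the diestrus arrays did so for 31, against 7.52%. Both comparisons use the same 3 immature arrays and are not independent of each other.

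**Figure D1:**
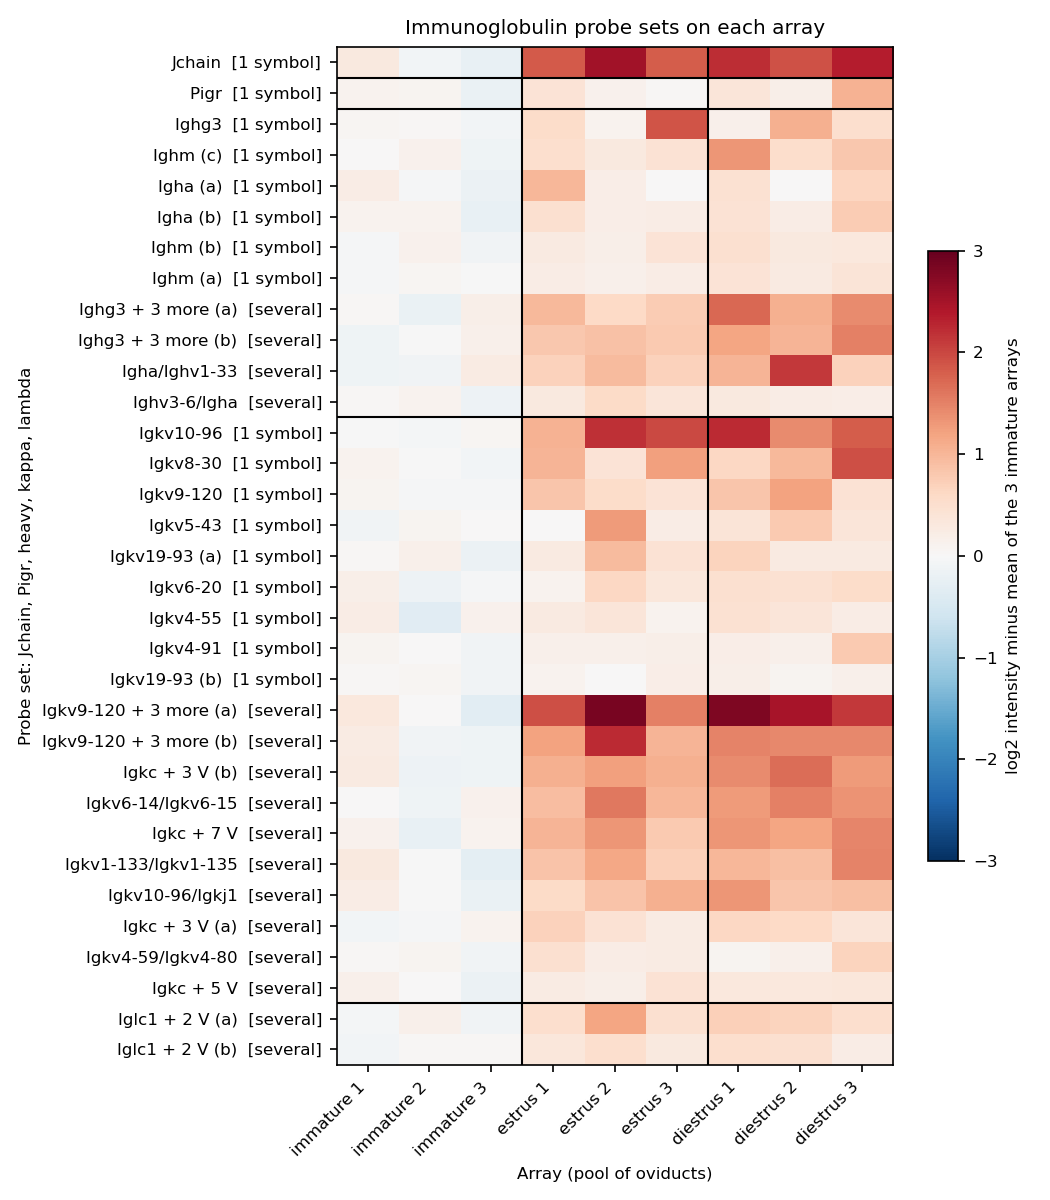
Each row is a probe set and each column an array; colour gives the log2 intensity minus the mean of the 3 immature arrays, on a scale from -3 to 3. Labels are shortened ("Ighg3 + 3 more" stands for Ighg3 with 3 other symbols, "Igkc + 3 V" for Igkc with 3 variable segments, letters for probe sets with the same symbols), and the 6 mature columns are mostly red, with the median chain 0.43 to 0.68 above the immature mean on each.

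Probe sets of this family made up much of what was higher in mature oviduct. Taking the mean of both stages as mature, 11 of the 34 probe sets called higher (0.121% of all; 0.312% were called lower, none of them members) were members, and so were 12 of the 17 that were at least 2-fold higher, whether called or not. In estrus alone members were 7 of 12 at least 2-fold higher and 5 of 9 called higher, and in diestrus 13 of 39 and 13 of 83. The 5 others at least 2-fold higher in mature oviduct were probe sets of Lipf, Serpina1c, Snora3 and Snord118 and 1 without a symbol. The arrays of both mature stages lay above all 3 immature arrays for 27 of 33 members, against 1.4% of all probe sets.

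Jchain, which links IgA and IgM into polymers, had log2 values of 7.30, 6.92 and 6.78 on the immature arrays, 8.84, 9.51 and 8.81 in estrus and 9.22, 8.90 and 9.36 in diestrus. The lowest mature array was 8.81 and the highest immature one 7.30, so the groups lay far apart. Jchain rose by 2.05 ± 0.20 in estrus (SE; limma adjusted p = 0.0182) and by 2.16 ± 0.20 in diestrus (limma adjusted p = 0.00301), which is 4.15-fold and 4.46-fold in intensity. Between the 2 mature stages it differed by 0.10 ± 0.20 (limma adjusted p = 0.978), from 9.05 ± 0.39 in estrus to 9.16 ± 0.23 in diestrus (SD, n = 3 each). The diestrus call held whichever single array was left out and ended without immature 1 and 2 together (2.37, limma adjusted p = 0.13) and without immature 2, diestrus 2 and diestrus 3 together (2.17, limma adjusted p = 0.216). The estrus call ended without immature 2 (2.01, limma adjusted p = 0.093) and without immature 3 (1.94, limma adjusted p = 0.11).

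Pigr, the epithelial receptor for those polymers, moved much less. It stood at 8.17, 8.16 and 7.87 on the immature arrays, 8.48, 8.20 and 8.11 in estrus and 8.43, 8.25 and 9.11 in diestrus. Estrus overlapped immature oviduct, and all 3 diestrus arrays lay above it, by 0.08 at the closest. The differences from immature oviduct were 0.20 ± 0.20 in estrus and 0.53 ± 0.20 in diestrus (SE; limma adjusted p = 0.874 and 0.287), and neither passed the test. The diestrus difference rested largely on diestrus 3 and was 0.27 without it (limma adjusted p = 0.402). On that array the mean of the 5 smooth muscle genes examined was also the highest, 12.49 against 11.57 to 11.89 elsewhere, and the mean of 8 epithelial genes the lowest, 11.43 against 11.49 to 11.66. The mean of 6 genes of uterine and cervical epithelium was highest there too, 8.56 against 8.12 to 8.30 elsewhere. The part of tissue composition in the Pigr value was not tested. The values of Pigr lay below the median of each array except on diestrus 3, and the arrays' medians were 8.85 to 8.90.

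**Figure D2:**
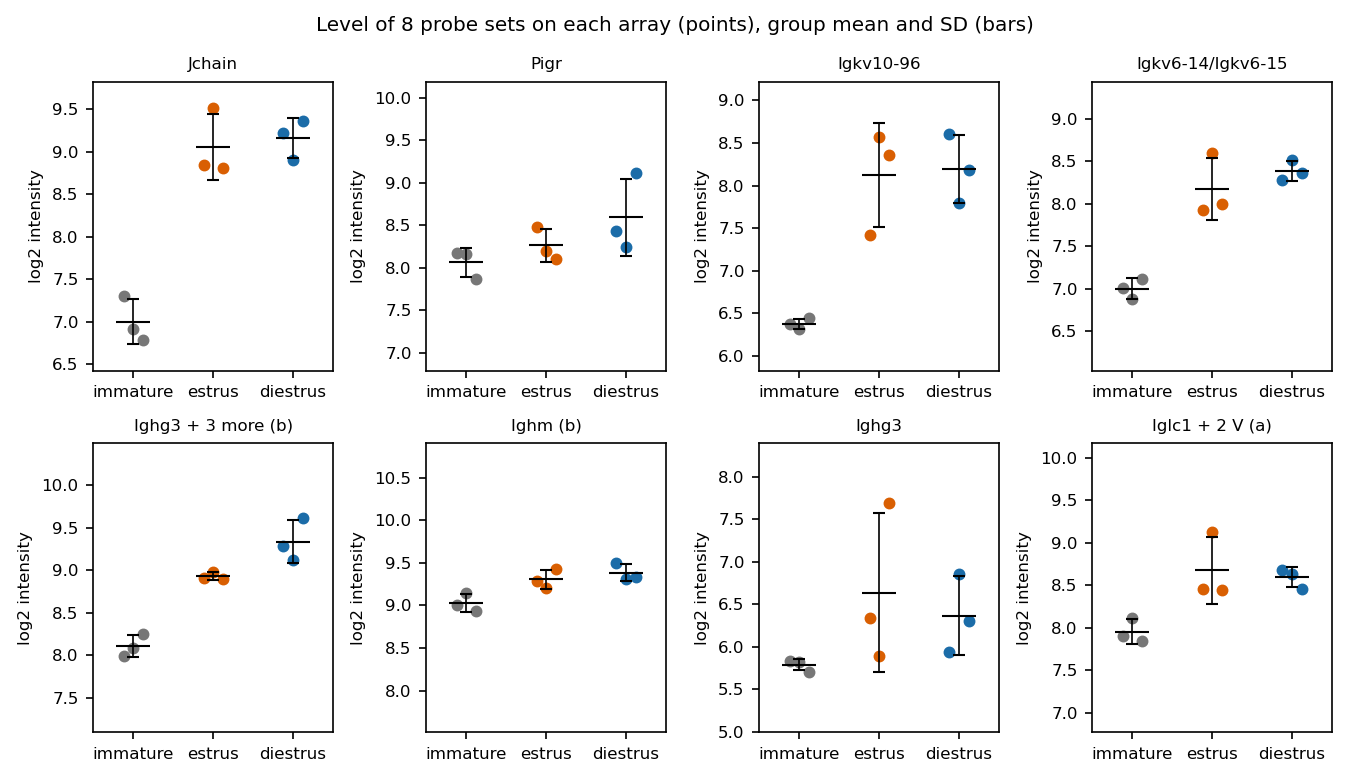
Points give the log2 intensity of 8 probe sets on each of the 9 arrays, with the group mean and SD as bars; every panel spans the same 3.4 units. Jchain, Igkv10-96, the Igkv6-14/Igkv6-15 set and the brighter of the Ighg3 sets with several symbols separate mature from immature arrays, Pigr overlaps between immature and estrus, and Ighg3 is high on estrus 3.

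Among the kappa chains, the light chains used by most mouse antibodies, 3 of 19 probe sets rose in estrus and 8 of 19 in diestrus, and all 19 means were higher in both. The median difference was 0.60 in estrus and 0.83 in diestrus. Of the 9 kappa probe sets with 1 symbol, all of them variable segments, none rose in estrus and 1 rose in diestrus. That one was Igkv10-96, with 6.37, 6.31 and 6.44 on the immature arrays, 7.42, 8.57 and 8.36 in estrus and 8.60, 7.80 and 8.18 in diestrus. Mature and immature arrays did not overlap, and the estrus arrays spread over 1.15 units. Igkv10-96 rose by 1.82 ± 0.28 in diestrus, 3.54-fold (SE; limma adjusted p = 0.0222). Its estrus difference of 1.75 ± 0.28 did not pass (limma adjusted p = 0.0857). The diestrus call ended without any one of the immature arrays or without diestrus 1 (differences of 1.62 to 1.86, limma adjusted p of 0.0743 to 0.0973).

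The kappa probe sets with several symbols moved further: 3 of 10 rose in estrus and 7 of 10 in diestrus. The one of Igkv6-14 and Igkv6-15, a pair of variable segments, stood at 7.01, 6.88 and 7.12 in immature oviduct, 7.92, 8.59 and 8.0 in estrus and 8.28, 8.51 and 8.36 in diestrus. It rose by 1.17 ± 0.16 in estrus and 1.38 ± 0.16 in diestrus (SE; limma adjusted p = 0.0369 and 0.00657). Igkc, the only kappa constant region, was named on 4 probe sets, each shared with variable segments, mostly of the Igkv4 family. Of these, probe set 10545187 was at 7.34, 6.93 and 6.95 in immature oviduct, 8.13, 8.30 and 8.13 in estrus and 8.48, 8.75 and 8.36 in diestrus. All diestrus arrays were above all estrus arrays, and all estrus arrays above all immature ones. It rose by 1.11 ± 0.13 and 1.46 ± 0.13 (SE; limma adjusted p = 0.0339 and 0.00272). Probe set 10545198, with 8 symbols, was at 7.83, 7.49 and 7.81, then 8.73, 9.04 and 8.50, then 9.03, 8.90 and 9.18, with no overlap between mature and immature arrays. It rose by 1.05 ± 0.14 and 1.33 ± 0.14 (SE; limma adjusted p = 0.0369 and 0.00604). The other 2 Igkc probe sets differed by 0.28 to 0.53 in the 2 stages, with no call.

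The widest difference of any member belonged to a kappa probe set, 10538880, that names Igkv9-120, Igk-V21, Igkv1-117 and also Map3k20, a kinase gene and no immunoglobulin. Its values were 5.81, 5.52 and 5.17 in immature oviduct, 7.42, 8.35 and 7.0 in estrus and 8.30, 7.97 and 7.63 in diestrus. Each immature value was under the lower quartile of its own array, and the mature ones overlapped between stages. It rose by 2.47 ± 0.31 in diestrus (SE; limma adjusted p = 0.0127), second among all probe sets for that comparison, while its estrus difference of 2.09 ± 0.31, the widest of all probe sets there, did not pass (limma adjusted p = 0.0656). The second probe set with these 4 symbols, 10538921, was at 7.64, 7.28 and 7.25 in immature oviduct, 8.60, 9.63 and 8.40 in estrus and 8.88, 8.83 and 8.82 in diestrus, and rose by 1.45 ± 0.26 in diestrus (limma adjusted p = 0.041). Its diestrus pools lay within 0.06 of each other, while estrus 2 stood apart from the other estrus pools. The set of Igkv1-133 and Igkv1-135 read 7.32, 7.03 and 6.75, then 7.90, 8.19 and 7.74, then 8.04, 7.94 and 8.53, and rose by 1.14 ± 0.18 in diestrus (limma adjusted p = 0.0293). Igkv10-96 with the joining segment Igkj1, the brightest kappa probe set, read 8.92, 8.68 and 8.49, then 9.28, 9.56 and 9.77, then 10.01, 9.54 and 9.60, and rose by 1.02 ± 0.16 in diestrus (limma adjusted p = 0.0263). On both, every mature array lay above every immature one.

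The other 8 kappa probe sets with 1 symbol, all variable segments, had no call. Igkv9-120 and Igkv19-93 a and b were the brightest of them. Igkv9-120 read 7.99, 7.88 and 7.87 in immature oviduct, 8.75, 8.47 and 8.33 in estrus and 8.75, 9.13 and 8.35 in diestrus, with a diestrus difference of 0.83 ± 0.17 (SE; limma adjusted p = 0.0654). Igkv19-93 b hardly differed, at 8.61, 8.64 and 8.47, then 8.67, 8.58 and 8.78, then 8.74, 8.66 and 8.72, and Igkv19-93 a differed by 0.40 ± 0.18 in diestrus (limma adjusted p = 0.36). Igkv8-30 had a wide diestrus difference that did not pass, 1.18 ± 0.30 (SE; limma adjusted p = 0.121). It read 5.67, 5.56 and 5.48, then 6.59, 5.98 and 6.80, then 6.19, 6.55 and 7.51, so the groups were apart from immature oviduct but spread widely. The remaining 4, Igkv4-91, Igkv4-55, Igkv5-43 and Igkv6-20, differed by 0.16 to 0.50 in estrus and 0.34 to 0.51 in diestrus. The remaining kappa probe set with several symbols, that of Igkv4-59 and Igkv4-80, differed by 0.31 in both stages.

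Heavy chains carry the class of the antibody. All 10 probe sets had higher means in both stages, 1 rose in estrus and 4 rose in diestrus, with median differences of 0.41 and 0.52. Ighm, the constant region of IgM, was the only heavy symbol with calls on probe sets of its own, and only in diestrus. Ighm a stood at 7.61, 7.70 and 7.63 in immature oviduct, 7.87, 7.81 and 7.86 in estrus and 8.06, 7.91 and 8.03 in diestrus. These 3 groups did not overlap, and their spread was small. It rose by 0.35 ± 0.06 in diestrus (SE; limma adjusted p = 0.0299), and Ighm c by 0.89 ± 0.17 (limma adjusted p = 0.0486). Ighm c was dim, at 5.78, 5.88 and 5.62, then 6.26, 6.05 and 6.19, then 7.09, 6.29 and 6.56. Ighm b, brighter than the array median on all 9 arrays, went from 9.00, 9.15 and 8.93 to 9.29, 9.21 and 9.43 in estrus and 9.50, 9.31 and 9.34 in diestrus, a difference of 0.36 ± 0.08 in diestrus that did not pass (limma adjusted p = 0.0872). The Ighm a call ended without any one of the immature arrays, estrus 3, diestrus 1 or diestrus 2 (limma adjusted p of 0.054 to 0.108), and the Ighm c call held in 1 of the 9 such fits, that without diestrus 2.

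Igha encodes the constant region of IgA, the class that mucosal plasma cells mainly make. Its 2 probe sets with 1 symbol carried the same 7 sequence accessions and did not pass the test. Igha a stood at 8.94, 8.68 and 8.53 in immature oviduct, 9.70, 8.92 and 8.73 in estrus and 9.17, 8.72 and 9.37 in diestrus, and the groups overlapped. Igha b stood at 7.60, 7.61 and 7.29, then 7.97, 7.71 and 7.73, then 7.93, 7.73 and 8.26, with all mature arrays above the immature ones. Their diestrus differences were 0.37 ± 0.25 and 0.47 ± 0.14 (SE; limma adjusted p = 0.577 and 0.171). Among heavy chains, the mature difference was widest on the 2 probe sets naming Ighg3, Igha, Ighv1-33 and Ighv1-26 (1.091 and 1.026, others at most 1.025). The second of these, 10403018, stood at 7.99, 8.09 and 8.25 in immature oviduct, 8.91, 8.98 and 8.90 in estrus and 9.28, 9.12 and 9.61 in diestrus. It rose by 0.82 ± 0.12 in estrus and 1.23 ± 0.12 in diestrus (SE; limma adjusted p = 0.0466 and 0.00301). The first, 10403015, read 7.44, 7.22 and 7.58, then 8.38, 8.02 and 8.18, then 9.14, 8.48 and 8.82, with no overlap between the 3 groups. It rose by 1.40 ± 0.16 in diestrus (limma adjusted p = 0.00719) and differed by 0.78 ± 0.16 in estrus (limma adjusted p = 0.183). Since 2 classes and 2 variable segments share them, these probe sets name no class. The other 2 heavy probe sets with several symbols, Igha with Ighv1-33 and Igha with Ighv3-6, differed by 1.28 ± 0.30 and 0.24 ± 0.09 in diestrus with no call (SE; limma adjusted p = 0.0973 and 0.271).

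Ighg3, a constant region of IgG, showed a different pattern on the probe set of its own: 5.84, 5.82 and 5.71 in immature oviduct, 6.34, 5.89 and 7.69 in estrus and 5.94, 6.86 and 6.30 in diestrus. Estrus 3 stood 1.35 above the next estrus array, and 4 of the 6 mature arrays were within 0.6 of the highest immature one. The differences of 0.85 ± 0.39 and 0.57 ± 0.39 did not pass (SE; limma adjusted p = 0.781 and 0.593). The lambda chains, the less used light chains of the mouse, were covered by 2 probe sets, both naming Iglv1, Iglc1 and Iglv2. The first was at 7.90, 8.12 and 7.85 in immature oviduct, 8.46, 9.13 and 8.44 in estrus and 8.68, 8.63 and 8.46 in diestrus, and no mature array reached down to an immature one. Its differences of 0.72 ± 0.17 and 0.64 ± 0.17 did not pass (SE; limma adjusted p = 0.256 and 0.127), nor did those of the second, 0.39 ± 0.09 and 0.40 ± 0.09 (limma adjusted p = 0.22 and 0.069).

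**Figure D3:**
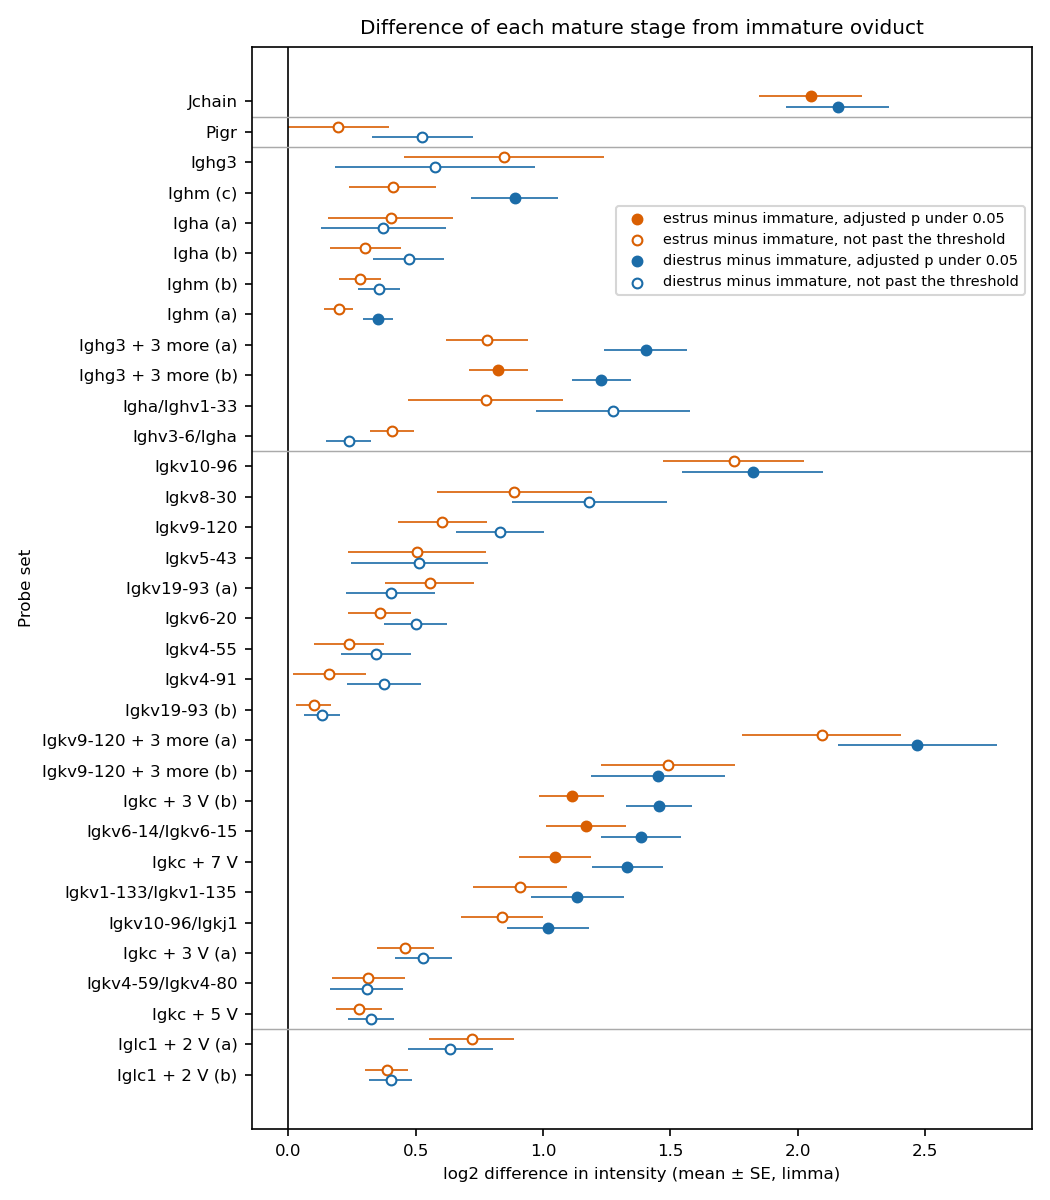
Points give the log2 difference of estrus (orange) and diestrus (blue) from immature oviduct for each of the 33 probe sets, with the SE of the limma fit as bars; filled points passed an adjusted p under 0.05. All points lie to the right of 0, with 5 filled for estrus and 13 for diestrus.

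No member separated estrus from diestrus in the test: 0 of 33 were called in either direction, against 0.0673% of all probe sets called higher and 0.0922% called lower in diestrus. At an unadjusted p under 0.05 there were 5 of 33, all higher in diestrus, against 3.85% of all probe sets higher at that level: Ighm a, Ighm c, both of the Ighg3 sets with 4 symbols and the Igkc set 10545187. For 26 of 33 members the diestrus mean was above the estrus mean (median difference 0.14, against -0.01 over all probe sets). For 5 members all diestrus arrays lay above all estrus arrays (4.93% of all probe sets), and for Ighv3-6/Igha they lay below (6.85%). The widest was that of probe set 10403015, 0.62 ± 0.16 (SE; limma adjusted p = 0.202). With array weights, which gave estrus 3 a weight of 8.16 and the other 8 arrays between 0.32 and 2.16, 9 members were called, all higher in diestrus, against 5.63% of all probe sets called higher under the same weights.

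The chains varied more between pools of the same group than the typical probe set did. The median SD over the 31 chain probe sets was 0.13 in immature oviduct, 0.22 in estrus and 0.23 in diestrus, against 0.08, 0.10 and 0.07 over all probe sets. Single pools stood out on single chains. Besides Ighg3 on estrus 3, the set of Igha and Ighv1-33 read 8.44 on diestrus 2 against 7.32 and 6.99 on the other diestrus arrays. Igkv5-43 read 7.14 on estrus 2 against 5.89 and 6.10, and Igkv8-30 read 7.51 on diestrus 3 against 6.19 and 6.55. These examples were chosen after their values were seen. No one pool led throughout: of the 31 chains, estrus 1, 2 and 3 were the highest of their group for 8, 16 and 7, and diestrus 1, 2 and 3 for 15, 6 and 10. Measured against the immature mean, the median chain stood 0.55, 0.56 and 0.43 higher on the estrus arrays and 0.62, 0.68 and 0.68 higher on the diestrus arrays.

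Most chain signals were dim. In immature oviduct 20 of 31 chain probe sets lay below the lower quartile of all 3 arrays, and 28 lay below the median of all 3. In estrus 10 and in diestrus 9 remained below the lower quartile throughout. The deposited values carry no detection call, so a low value was not shown to be above background, and the change in RNA amount may differ from the change in intensity. The probe sets are also not independent: 19 of the 33 members shared a sequence accession with another member, and several name constant and variable segments at once, so a constant symbol does not show that the probes lie in that region.

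Genes of the cells that make antibodies were examined next. Of 30 measured B cell and plasma cell genes 0 passed the limma test in estrus or diestrus against immature oviduct, in diestrus against estrus, or for both mature stages together. Over all probe sets the shares called in either direction were 0.0851%, 1.0%, 0.159% and 0.432%, so that 0 calls in a list of this size is near the background. At an unadjusted p under 0.05 there were 2, 1, 5 and 2 of 30, and 1, 1, 2 and 1 of these were higher. Over all probe sets the shares at that level were 6.52%, 13.4%, 9.33% and 10% in either direction. The median difference of the 30 genes between mature and immature oviduct was 0.05, against 0.65 for the 33 members and 0.01 for all probe sets. The most strongly hybridising were Xbp1, the secretory regulator needed by plasma cells and also active in other secretory cells, the related factor gene Creb3l2 and the stress gene Herpud1. They differed by -0.00 ± 0.05, -0.02 ± 0.09 and 0.04 ± 0.15 (SE). The genes that follow were chosen after their values were seen. Means were higher in mature oviduct for 22 of the 30 genes and lower for 8. Among the lower, Sdc1, Ms4a1 and Derl3 differed by -0.131 ± 0.047, -0.077 ± 0.06 and -0.072 ± 0.125 (limma adjusted p of 0.386 to 0.86). Sdc1 and Derl3 had group means of 10.19 to 10.33 and 10.77 to 10.94, well above the array medians. Which cells of the oviduct these signals came from was not tested. Cd79a, a subunit of the B cell receptor, read 7.04, 7.0 and 6.87 in immature oviduct, 7.59, 7.12 and 7.12 in estrus and 7.32, 7.13 and 7.08 in diestrus. All its mature arrays lay above the immature ones, and it differed by 0.26 ± 0.11 (limma adjusted p = 0.477). Mzb1, a chaperone for antibody assembly, differed by 0.00 ± 0.07, Tnfrsf17, the plasma cell receptor BCMA, by 0.08 ± 0.06, and Prdm1, the regulator that commits B cells to secretion, by 0.16 ± 0.08 (limma adjusted p of 0.538 to 0.991). On the arrays, Mzb1 read between 9.08 and 9.13 in immature oviduct, 9.08 and 9.17 in estrus and 8.91 and 9.19 in diestrus, so all groups overlapped. Prdm1 read 8.46, 8.50 and 8.76 in diestrus, above its 8.17 to 8.32 in immature oviduct, with a difference of 0.34 ± 0.09 that did not pass (limma adjusted p = 0.126).

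The other lists of the pathway, of 7 to 22 genes, also had 0 genes called under limma in each of these 4 comparisons, again near the shares over all probe sets. Among 7 genes of the surrogate light chain and of recombination, which act in B cell precursors, the median mature difference was 0.11, and the surrogate light chain genes Vpreb3, Vpreb2 and Vpreb1 differed by 0.23 ± 0.09, 0.12 ± 0.10 and 0.11 ± 0.08 (SE). Among 22 genes of homing and survival of the B lineage the median was 0.05. Itgb1, an integrin subunit, and Ccl19 and Cxcr4, a chemokine and a chemokine receptor, differed by -0.02 ± 0.12, 0.06 ± 0.10 and -0.09 ± 0.12. Cxcl13, the chemokine that draws B cells into follicles, ran the other way: 9.51, 9.07 and 9.08 in immature oviduct, 8.40, 8.86 and 8.55 in estrus and 8.81, 8.61 and 8.85 in diestrus. All its mature arrays lay below the immature ones, with a difference of -0.54 ± 0.12 that did not pass (limma adjusted p = 0.13). Ccl28, which attracts IgA plasma cells to mucosae, overlapped between all groups, at 8.96 to 10.10 in immature oviduct, 9.28 to 9.93 in estrus and 9.84 to 9.96 in diestrus. Cxcl13 and Ccl28 too were chosen after their values were seen.

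The 13 receptors for immunoglobulins, several of them receptors of leukocytes, had a median mature difference of 0.06, and B2m, the partner of the neonatal Fc receptor and of class I molecules, differed by 0.26 ± 0.09, Lgals3 by 0.03 ± 0.12 and the Fc receptor subunit gene Fcer1g by 0.08 ± 0.11 (SE). On the epithelial side, of 18 cytokines, receptors and factors that can induce Pigr, the median was 0.02, with the interferon receptor genes Ifngr2 and Ifngr1 at -0.03 ± 0.06 and 0.01 ± 0.08 and the interleukin receptor gene Il4ra at 0.02 ± 0.06. For 12 genes of transport through epithelial cells it was -0.04, with the recycling GTPase gene Rab25 at -0.00 ± 0.06, the retromer gene Vps35 at -0.06 ± 0.05 and the myosin gene Myo5b at -0.15 ± 0.08. Counts at an unadjusted p under 0.05 in the comparison of mature with immature oviduct were 1 of 7, 1 of 22, 4 of 13, 1 of 18 and 0 of 12 for these 5 lists in the order given, against 10% of all probe sets.

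**Figure D4:**
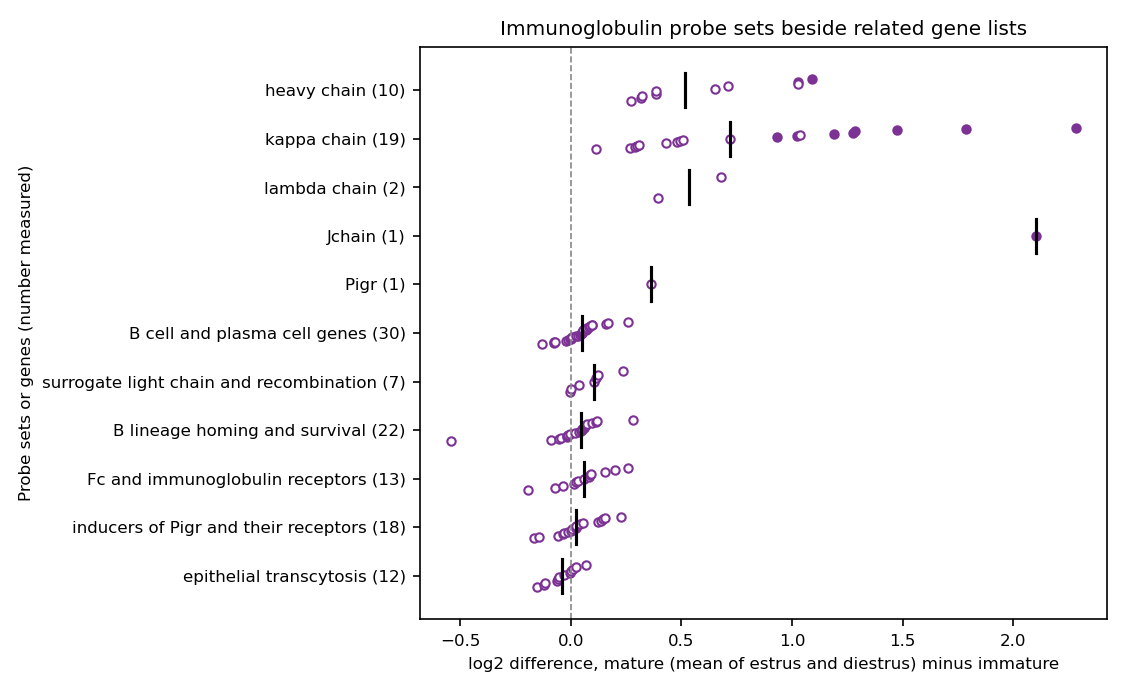
Each point is a probe set or gene, placed by its log2 difference between mature (mean of estrus and diestrus) and immature oviduct; black lines are medians and filled points passed a limma adjusted p under 0.05. Heavy, kappa and lambda chains have medians of 0.52, 0.72 and 0.54, and the 6 related lists have medians between -0.04 and 0.11 with no filled point.

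The arrays bore out the tissue label: Pax8 of secretory cells read 11.76 to 12.23 and Foxj1 of ciliated cells 10.98 to 11.67, far above the array medians. Markers of other cells were summed for comparison. For 9 of 10 T and NK cell genes measured, the summed linear intensity was 1829 to 2015 in immature oviduct, 1879 to 2107 in estrus and 1994 to 2068 in diestrus, and none was called. For 6 of 8 lymph node stroma genes it was 3091 to 3704, 3135 to 3539 and 3125 to 3706, and for 3 of 5 blood genes 718 to 826, 691 to 813 and 726 to 781, also with none called. For 10 macrophage and dendritic cell genes it was 6230 to 7031 in immature oviduct, 6949 to 8463 in estrus, which overlaps it, and 8574 to 9701 in diestrus, which does not. Their median difference was 0.05 in estrus and 0.28 in diestrus, and H2-Aa of class II antigen presentation was the 1 called in diestrus (0.70 ± 0.09, limma adjusted p = 0.013). For both mature stages together 1 of the 10 was called, against 0.432% of all probe sets. Means were higher for 7 of 10 in estrus and for all 10 in diestrus. At an unadjusted limma p under 0.05, 2 were higher in estrus and 6 in diestrus, against 2.25% and 4.44% of all probe sets. For 5 of 6 fat genes the sum was 1744 to 3280 in immature oviduct, 1599 to 1757 in estrus and 1452 to 1827 in diestrus, with none called and a median mature difference of -0.49. Their mean log2 value was 8.91 and 8.67 on immature 1 and 2, against 7.97 to 8.29 on the other arrays. Of 8 ovarian genes, Star of steroid synthesis was called higher in diestrus (0.74 ± 0.14, limma adjusted p = 0.0463), with all diestrus arrays above the others. For 6 uterine and cervical epithelium genes the sum was 1731 to 1988 in immature oviduct, 1781 to 1954 in estrus and 1894 to 2712 in diestrus. None of them was called, and their mean was highest on diestrus 3. The summed ovarian genes stood apart on immature 2 and diestrus 2 and muscle genes on diestrus 3. The part of these cells in the chain values was not tested. Without the last 3 arrays all 33 members still had higher means in both stages, with medians of 0.59 in estrus and 0.61 in diestrus. No member was then called (limma; 24 and 21 at an unadjusted p under 0.05, against 5.99% and 9.08% of all probe sets), and 2 and 3 probe sets were called over the whole array. Without immature 1 and 2, the medians were 0.59 and 0.72 with all 33 means higher, no member was called (19 and 24 at an unadjusted p under 0.05, against 8.73% and 10.5%), and 2 and 4 probe sets were called over the whole array. Each of these fits leaves 1 array in a group, which is assumed to vary like the others.

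The number of calls depended on single arrays although the direction did not. Leaving out immature 1, 2 or 3 took the 5 calls of estrus to 2, 0 or 0. Leaving out estrus 1, 2 or 3 took them to 2, 2 or 1, and diestrus 1, 2 or 3, which enter that comparison through the shared variance alone, to 1, 2 or 6. The 13 calls of diestrus became 7, 6 or 6 with an immature array left out and 10, 13 or 11 with an estrus array. With a diestrus array left out they became 7, 8 or 15. Calls over the whole array moved too. In the same order, the 24 of estrus became 7, 2 or 1, then 7, 3 or 4, then 5, 5 or 95. The 282 of diestrus became 58, 41 or 52, then 154, 257 or 153, then 80, 45 or 533. In each of these 9 fits all 33 members had higher means in both stages. The members called in diestrus whichever array was left out were Jchain, both Ighg3 sets with 4 symbols, the Igkc sets 10545187 and 10545198 and the set of Igkv6-14 and Igkv6-15. The call was kept in 6 of 9 fits for probe set 10538880, 5 for Igkv10-96, 4 for Igkv10-96 with Igkj1, 3 for Igkv1-133 with Igkv1-135 and 2 for probe set 10538921. The estrus calls were kept in 7 of 9 fits for Jchain, 3 for probe set 10545187, 2 for Igkv6-14 with Igkv6-15 and 1 each for probe sets 10545198 and 10403018.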

How the data were processed

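RNA of 9 oviduct pools was measured on Affymetrix arrays. The authors deposited log2 intensities made by RMA in Affymetrix Expression Console, per the submitters' processing notes. Versions and genome build were not stated in the sources used, and the base of the logarithm was taken from the range of the values. RMA equalises the arrays' distributions and gives no detection call; the number of arrays limits the precision.

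Symbols came from the platform's annotation: 21640 probe sets had 1 symbol, 1321 several and 5253 none. Of 34 Entrez genes on the members, 33 matched the RefSeq table, with the same symbols; Igk-V21 did not. For list genes with several probe sets of 1 symbol, the one with the highest mean was used. Letters a, b and c number probe sets with equal symbols.

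One limma model (version 3.58.1) held all 9 arrays (R 4.3.3, lmFit, eBayes; 6 residual degrees of freedom), without blocking, two-sided, with Benjamini-Hochberg adjustment over all 28214 probe sets and calls under 0.05. The groups share replicate numbers, which the labels do not tie to a common source. Values per array are given for Jchain, Pigr, constant regions, called members and most of the 3 brightest and 3 most different members per chain. In related lists the called genes and the 3 of highest mean are named. Members and lists were chosen with earlier results of these data known. Alternatives were other normalizations, filters, variance models, array weights, a replicate block and arrays left out. In simulated data for estrus minus immature, with 28214 probe sets, 51 of 63 changes of 1.5-fold and 63 of 65 of 4-fold were called, with 9 false calls over all sizes; for diestrus minus immature these were 59 of 76, 68 of 69 and 3. The simulated noise was normal and independent between probe sets, at each one's own SD, with changes given to probe sets picked at random. The chains varied more than the typical probe set and were not independent, so these rates need not hold for them. Figures used Python 3.11.15 and matplotlib 3.10.9.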

Additional observations from a re-analysis of the deposited data

How the results depend on the processing

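All members tested had higher means than immature oviduct in estrus, in diestrus and in both together under every alternative run, and no member was called lower against immature oviduct. The counts of calls moved. For estrus against immature oviduct the 5 calls became 2 after quantile normalization again, 2 after median centring, 1 after cyclic loess, 3 of the 7 members left by a filter on dim probe sets, 19 with array weights, 3 with only the arrays compared, 0 at an adjusted p under 0.01, 1 of 17 with 1-symbol probe sets only, 0 without the 3 arrays with high ovarian or muscle values, 0 without the 2 immature arrays with high fat values (both chosen after seeing the data) and 0 to 6 with single arrays left out. Array weights raised calls everywhere: over all probe sets the share called higher went from 0.0319% to 1.15% in estrus, from 0.294% to 1.19% in diestrus and from 0.121% to 0.415% for both, and leaving out immature 2 or 3 left 2 or 1 calls in estrus over all probe sets. For diestrus the 13 became 5 of 7, 21, 6, 5 of 17, 0 and 0 under the filter, array weights, the stricter threshold, 1-symbol probe sets and the 3 or the 2 arrays left out, and 6 to 15 with single arrays left out. For both mature stages together the 11 became 5 of 7, 21, 5, 2 of 17, 0 and 0, and 4 to 14. In the main fit the 17 members with 1 symbol had 1 call in estrus, 4 in diestrus and 2 for both stages together. The 1-symbol setting thus took none of them away. With only the arrays compared, 9 members were called in diestrus. Diestrus against estrus went from 0 to 9 with array weights (from 45 to 3331 over all probe sets). Over all probe sets the 24 calls of estrus became 22 after quantile normalization again, 23 after median centring and 5 after cyclic loess. They became 21 under the filter, 23 with only the arrays compared, 2 at the stricter threshold and 12 with 1-symbol probe sets. In the same order the 282 of diestrus became 215, 262, 205, 368, 85, 31 and 277. A gene of the related lists was counted if called in any of the 4 comparisons. With array weights these counts went from 0 to 3 (B and plasma cells), 1 (homing), 2 (receptors), 5 (inducers) and 4 (transport). Over all probe sets the same weights gave 1023 calls in estrus, 1288 in diestrus, 3331 between the stages and 578 for both together. With single arrays left out the count for transport was 0 to 1. The cause was not tested, except that the filter and the 1-symbol setting test fewer members and leaving out arrays removes samples. The filter kept probe sets by their highest group mean, so a member dim in immature oviduct could pass through a mature stage. Of all 33 members, 1 lay above the array median on all 3 immature arrays. The higher means and the calls among the 7 members kept are therefore no independent check of the direction.

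Whether the replicate number shared by the groups pairs the pools was not settled. Same-numbered arrays correlated between -0.294 and 0.169 in their deviations from the group means, and arrays of different number between -0.259 and 0.291. Between estrus and diestrus alone, same-numbered arrays correlated at 0.064 to 0.169 and the others at -0.125 to 0.007. With a replicate block the counts of members called were 0 in estrus, 7 in diestrus, 7 for both and 0 between the stages. Over all probe sets the counts under that block were 4, 121, 44 and 13. The Jchain difference between diestrus and estrus was -0.0005 without estrus 1 and -0.0165 without estrus 3, and ranged from -0.0165 to 0.331 with single arrays left out.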
